A study of Mus musculus with 59 samples.

Results

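Receptors for serotonin, dopamine and noradrenaline were followed in the mRNA of mouse cortex and hippocampus. The 28 genes were every row of the raw count table, of 57180 gene rows, whose symbol named a serotonin (Htr), dopamine (Drd), alpha-adrenergic (Adra) or beta-adrenergic (Adrb) receptor: 14 serotonin, 5 dopamine and 9 adrenergic receptors. The libraries came from male mice with 4 labelled genotypes, each stated for both genes of interest: Mrpl40 +/+ with Slc25a1 +/+ (wild type), Mrpl40 +/+ with Slc25a1 -/+ (Slc25a1 het), Mrpl40 -/+ with Slc25a1 +/+ (Mrpl40 het) and Mrpl40 -/+ with Slc25a1 -/+ (double het). The first of these genes, Mrpl40, encodes a component of mitochondrial ribosomes, and Slc25a1 the carrier that exports citrate from mitochondria. Cortex had 9 labelled wild-type libraries and 7 of each other genotype; hippocampus had 8 and 7. The 59 libraries came from 30 animals, 29 of them with both tissues. The labels give no age, batch, litter or way in which the alleles were made.

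These receptors read out the monoamines that a few brainstem nuclei release across the forebrain. All but the Htr3 channel couple to G proteins: the Gs-coupled receptors (Drd1, Drd5, Htr4, Htr6, Htr7 and the beta-adrenergic receptors) raise cyclic AMP, the Gi-coupled ones (Drd2, Drd3, Drd4, the Htr1 receptors, Htr5a and the alpha-2 receptors) lower it, and the Gq-coupled ones (the Htr2 and alpha-1 receptors) release calcium from internal stores. Htr3a and Htr3b are instead subunits of a serotonin-gated ion channel. In cortex and hippocampus the receptors sit on pyramidal cells, granule cells, interneurons and glia in a different mixture for each gene.

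Library totals ran from 21443017 to 32120906 counts (median 27161340). In hippocampus of labelled wild-type animals, 13 of the 16 subfield markers that passed the count filter in both tissues were higher than in cortex and 2 were lower, and 9 of 15 neocortical layer markers were lower and 3 higher (30.4% of all genes were higher and 30.1% lower). The Slc25a1 level went against the label in 6 animals: 2 labelled wild type (11.2 to 12.7 CPM, counts scaled to a common library size, in their 4 libraries), 2 labelled Slc25a1 het (21.2 to 24.3) and 2 labelled double het (21.0 to 27.3). For this reason every genotype below is given as labelled. Mrpl40 did not separate the groups, with medians of 17.2 CPM in labelled wild-type and 17.5 in labelled Mrpl40 het cortex. In marker genes of neighbouring tissue, 3 hippocampus libraries stood apart. The labelled Slc25a1 het replicate 3 had a summed thalamic and cerebellar marker level of 779 CPM against 147 to 274 in the 26 other libraries, and the labelled Mrpl40 het replicate 5 and double het replicate 6 had summed choroid plexus marker levels of 89.8 and 103 against 25.2 to 57.2.

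Promoter sequence is shown for receptors whose levels did not overlap between the tissues (described below), since these carry the clearest result, and only where RefSeq's promoter table held a window that no annotated exon crossed. The 250 bases before each start are given 5′ to 3′ on the gene's strand, in the table's build, GRCm38.p6, which is not the GRCm39 build named in the submitters' processing notes. Capitals mark short motifs that a search found on either strand, none of which overlap. The TATA box was searched as TATAAA. The box named after its letters was searched as CCAAT. The motif called the GC box was searched as GGGCGG. The palindromic cyclic AMP response element was searched as TGACGTCA.

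Adrb1, chr19:56721867-56722116, plus strand: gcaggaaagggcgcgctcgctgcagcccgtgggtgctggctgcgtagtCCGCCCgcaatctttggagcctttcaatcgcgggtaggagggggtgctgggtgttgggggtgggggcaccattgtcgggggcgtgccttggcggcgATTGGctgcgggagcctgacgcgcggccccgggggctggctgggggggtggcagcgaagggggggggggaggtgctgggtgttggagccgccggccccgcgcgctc

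Adra1b, the GC-rich start, chr11:43836490-43836739, minus strand: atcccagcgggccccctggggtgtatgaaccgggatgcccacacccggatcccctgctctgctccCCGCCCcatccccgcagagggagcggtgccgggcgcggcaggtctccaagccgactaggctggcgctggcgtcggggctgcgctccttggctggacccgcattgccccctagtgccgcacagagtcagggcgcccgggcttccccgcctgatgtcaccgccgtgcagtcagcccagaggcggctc

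Adra1b, the other start, chr11:43901238-43901487, minus strand: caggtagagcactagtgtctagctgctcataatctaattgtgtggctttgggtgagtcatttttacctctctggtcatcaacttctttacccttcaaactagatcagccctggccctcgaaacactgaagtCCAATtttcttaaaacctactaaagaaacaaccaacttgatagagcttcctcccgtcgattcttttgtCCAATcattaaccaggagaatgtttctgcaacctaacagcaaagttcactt

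Htr5a, chr5:27841697-27841946, plus strand: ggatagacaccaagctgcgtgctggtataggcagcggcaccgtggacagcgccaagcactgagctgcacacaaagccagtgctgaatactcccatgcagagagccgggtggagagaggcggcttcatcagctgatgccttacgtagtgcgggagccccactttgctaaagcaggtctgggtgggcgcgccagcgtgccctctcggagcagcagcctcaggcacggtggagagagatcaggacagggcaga

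Drd2, chr9:49340153-49340402, plus strand: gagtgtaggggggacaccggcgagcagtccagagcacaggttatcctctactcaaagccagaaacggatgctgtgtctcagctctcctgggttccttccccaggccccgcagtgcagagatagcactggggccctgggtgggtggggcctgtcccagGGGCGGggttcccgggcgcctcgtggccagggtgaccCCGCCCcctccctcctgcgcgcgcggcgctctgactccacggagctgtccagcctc

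The Adrb1 window was 74.0% G and C with 24 CpG dinucleotides, and it held 1 GC box and 1 CCAAT box. Adra1b had 2 annotated starts with unlike sequence: one window of 72.8% GC with 22 CpGs and a GC box, the other of 41.6% GC with 3 CpGs and 2 CCAAT boxes. The Drd2 window (68.8% GC) held 2 GC boxes, and the Htr5a window (62.0% GC) held none of the 4 motifs. With chromosome 18 left out, 21 of the 28 receptors matched the table, with 25 windows. Their median GC content was 56.8%, against 52.4% over all 32851 windows (chromosome 18 not removed). A GC box was present in 13 of the 25 receptor windows and in 32.7% of all windows, and a CCAAT box in 9 of 25 and in 33.8%. A TATA box was found in 1 receptor gene, Adra2a, against 12.4% of all windows, and the cyclic AMP response element in none, against 1.55%. These counts describe letters in a window and say nothing of which factor binds there.

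Levels are given as TMM-scaled CPM and, where genes are compared with each other, as CPM per kilobase of exon (GENCODE vM21). Per kilobase, 2 adrenergic receptors led in cortex: Adra1d, a Gq-coupled alpha-1 receptor, at a median of 14.4 and Adrb1, the main cardiac and cortical beta receptor, at 13.8. The following genes, Htr5a (4.94), Adra1b (4.80), Htr7 (4.18) and Htr2a (4.11), lay close together. In hippocampus Adra1d again led at 20.1 CPM per kilobase, followed by Htr1a, the inhibitory serotonin autoreceptor and pyramidal cell receptor, at 8.39, and then by Htr3a (4.25), Adra2c (4.07) and Adrb1 (4.07). Adra1d alone made up a median of 21.0% of the summed receptor level per kilobase in cortex and 30.9% in hippocampus. Adrb1 added 20.3% in cortex and 6.61% in hippocampus, and Htr1a added 4.67% in cortex and 13.2% in hippocampus. These ranks and shares depend on the annotated exonic length, 1899 bases for Adra1d, 3382 for Adrb1 and 4484 for Htr1a. In CPM, Adrb1 was above Adra1d in cortex (medians 46.7 and 27.4). Adra1d and Htr1a were close in hippocampus (38.3 and 37.6). The lengths are from GRCm38, not the GRCm39 build of the processing notes.

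Near zero, and not tested in either tissue, were 4 receptors. Htr3b, the partner subunit of the serotonin channel, had no count in 25 of 30 cortex and 18 of 29 hippocampus libraries, and Drd3, a dopamine receptor known from the ventral striatum, had none in 28 of 30 and 13 of 29. Htr2b (median 3 counts in cortex and 2 in hippocampus) and Adra2b (2 and 2) stood a few counts above zero. Drd4 (medians of 14 counts in cortex and 4 in hippocampus) and Htr1d (10 and 4) passed the filter in cortex and not in hippocampus. The tests below therefore hold 24 receptors in cortex, 22 in hippocampus, and 24 in the fit of both tissues, which Drd4 and Htr1d entered through their cortex counts. Since these 2 passed only through the tissue where they are high, their own values are given as a description.

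**Figure D1:**
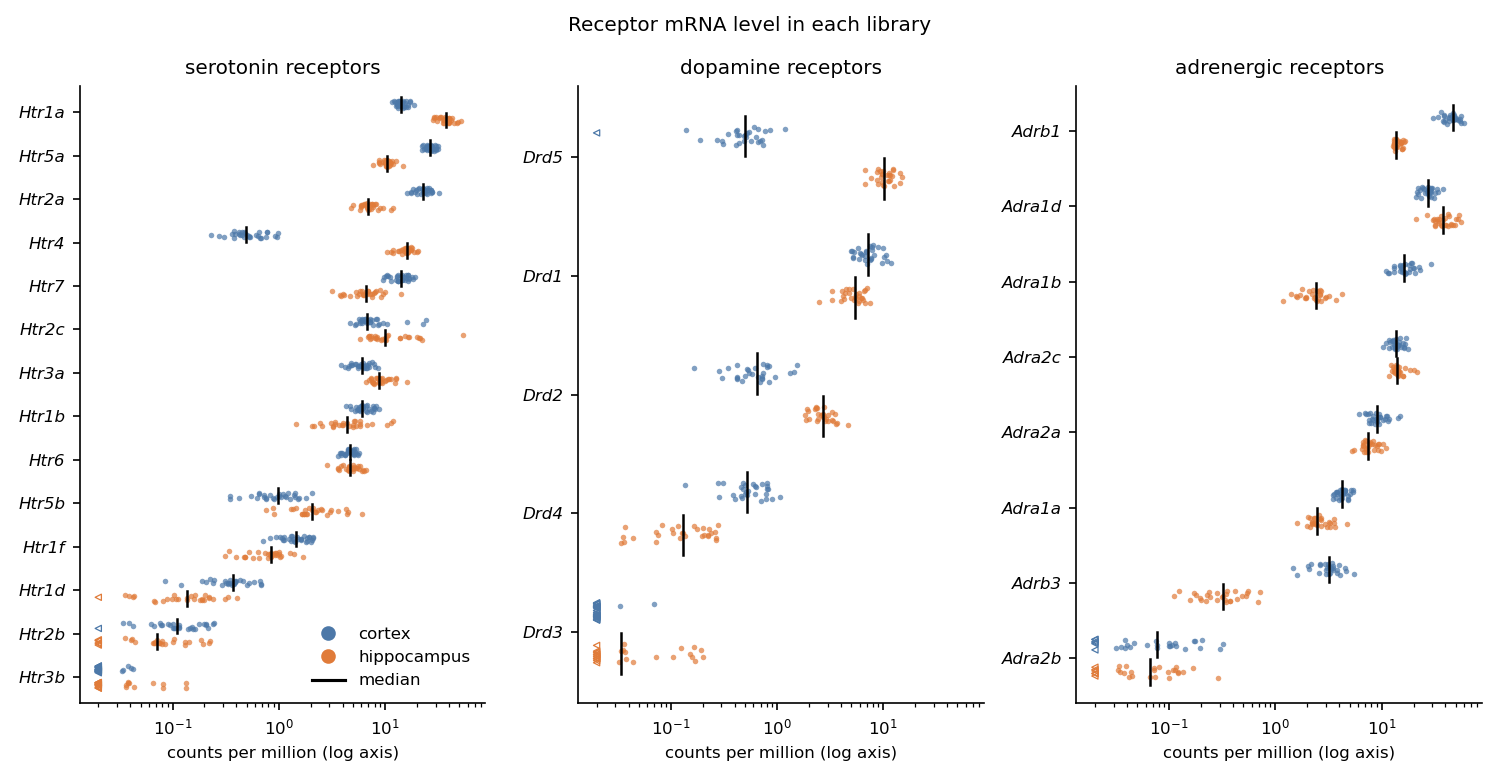
mRNA level of 27 of the 28 receptors in CPM (log axis), 1 point per library, cortex and hippocampus in separate colours, 1 panel per family. The points of Htr4, Drd5, Drd2 and Htr1a lie higher in hippocampus and those of Adrb1, Adra1b, Adrb3, Htr2a and Htr5a higher in cortex, with no overlap between the tissues.

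The first comparison asked where each receptor is expressed more, hippocampus or cortex, within the same animals. For 9 of 24 receptors (37.5%) the 2 tissues did not overlap at all, against 15% of the 21354 genes in the same fit. Higher in hippocampus were 4 (7.1% of all genes) and lower were 5 (7.89%), and each of the 9 went the same way in 29 of 29 animals. By edgeR's quasi-likelihood test with the animal as a block, 21 of 24 receptors differed in labelled wild-type animals, 8 higher and 13 lower in hippocampus, where 60.6% of all genes differed (30.4% higher, 30.1% lower). Without Drd4 and Htr1d, 19 of 22 differed, 8 higher and 11 lower, against 60.7% of the 19463 genes that passed the filter in both tissues, and the 9 that did not overlap are then read against 15.3%. The median absolute log2 difference was 0.95 for the 22 receptors and 0.25 for those genes. In bulk tissue fewer cells of a type and less RNA per cell cannot be told apart.

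Serotonin receptors split evenly: of the 11 that passed the filter in both tissues, 5 were higher and 5 lower in hippocampus of labelled wild-type animals (30.4% of all genes were higher and 30.1% lower). Htr4, a Gs-coupled receptor, had the greatest difference of all 24: its level ran from 0.232 to 0.98 CPM (median 0.492) in cortex and from 10.5 to 20.7 (median 16.1) in hippocampus. Every hippocampus library lay far above the highest cortex library. The log2 difference in labelled wild-type animals was 4.90 ± 0.14 (SE), a 29.9-fold rise (edgeR adjusted p = 4.26e-24), and the other labelled genotypes gave 4.90, 4.87 and 4.59. Htr1a ran from 11.7 to 18.9 CPM (median 14.3) in cortex and from 28.6 to 52.1 (median 37.6) in hippocampus, 2.61-fold higher (log2 1.38 ± 0.11; adjusted p = 5.15e-12). Even the lowest hippocampus library exceeded all cortex libraries.

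Htr2a, the Gq-coupled receptor at which classical psychedelics act, went the other way. It ran from 16.1 to 32.4 CPM (median 23.1) in cortex and from 4.75 to 12.0 (median 6.99) in hippocampus, 3.05-fold lower (log2 -1.61 ± 0.12; adjusted p = 7.79e-13). Htr5a, a Gi-coupled receptor, ran from 22.3 to 31.5 CPM in cortex and from 7.72 to 14.9 in hippocampus, 2.44-fold lower (log2 -1.29 ± 0.06; adjusted p = 4.97e-19). Its paralogue Htr5b was low and had the opposite sign, with medians of 0.98 CPM in cortex and 2.07 in hippocampus (log2 1.10 ± 0.35; adjusted p = 0.00761), and its libraries overlapped. Htr7, the Gs-coupled receptor, was lower in hippocampus in 28 of 29 animals (medians 14.2 and 6.58 CPM; log2 -0.85 ± 0.17; adjusted p = 7.05e-05), although the highest hippocampus library, labelled Mrpl40 het, reached 14.2 CPM.

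Htr3a, the channel subunit of a class of interneurons, was higher in hippocampus in 26 of 29 animals (medians 6.06 and 8.86 CPM; log2 0.70 ± 0.14; adjusted p = 5.69e-05). Htr1f, a Gi-coupled receptor targeted by triptans, fell by 1.05 on the log2 scale (adjusted p = 8.34e-05). Htr1d, another triptan target, had medians of 0.369 CPM in cortex and 0.136 in hippocampus. Htr6 had nearly equal medians, 4.73 CPM in cortex and 4.69 in hippocampus. Its log2 difference was 0.12 ± 0.08 in labelled wild-type animals (adjusted p = 0.216). In labelled Slc25a1 het animals Htr6 was lower in hippocampus (-0.24 ± 0.09, adjusted p = 0.0222). A direct test between these labels did not pass (log2 -0.35, edgeR adjusted p = 0.816). Calls for Htr1b (log2 -0.68, adjusted p = 0.0386) and Htr2c (log2 0.67, adjusted p = 0.0348) were marginal: both were lost without the low-count filter, without the animal block, without the 6 animals whose Slc25a1 level went against the label and against a minimum fold of 1.2. Htr1b was also lost without the 3 hippocampus libraries that stood apart.

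The 3 dopamine receptors that passed the filter in both tissues all differed between them in labelled wild-type animals, as did 60.6% of all genes: Drd5 and Drd2 were higher and Drd1 lower in hippocampus. Drd5, the Gs-coupled partner of Drd1 with the higher affinity for dopamine, ran from 0 to 1.2 CPM (median 0.495) in cortex and from 6.69 to 15.1 (median 10.2) in hippocampus. All hippocampus libraries lay above all cortex libraries, and the labelled wild-type difference was 22.4-fold (log2 4.49 ± 0.22; adjusted p = 2.85e-17). Drd2, the Gi-coupled receptor at which antipsychotics act, ran from 0.167 to 1.55 CPM in cortex and from 1.85 to 4.67 in hippocampus, 5.64-fold higher (log2 2.50 ± 0.25; adjusted p = 3.32e-10). Drd4, a Gi-coupled receptor, had medians of 0.526 CPM in cortex and 0.131 in hippocampus. Drd1, the main Gs-coupled receptor, was lower in hippocampus (medians 7.26 and 5.48 CPM; log2 -0.38 ± 0.17; adjusted p = 0.0480). That call, in labelled wild-type animals, was lost without the low-count filter, without the animal block, without the 6 animals and against a minimum fold of 1.2. Drd1 was lower in 24 of 29 animals and passed in all 4 labelled genotypes. The log2 difference was -0.41 with the Slc25a1 het label (edgeR adjusted p = 0.0425). It was -0.75 with the Mrpl40 het label (0.00046) and -0.48 with the double het label (0.0214).

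Per kilobase, the summed dopamine receptor level was a small share of the whole in both tissues, and yet it was higher in hippocampus in 29 of 29 animals, with medians of 2.60 in cortex and 5.97 in hippocampus. Drd5 accounted for most of the hippocampal sum (3.23), whereas Drd1 was the largest term in cortex (2.00). Drd1 and Drd2 are abundant in striatum, and striatal markers were present at unequal levels. Of the 12 listed, Isl1 had no count in 26 of 30 cortex and 20 of 29 hippocampus libraries, while Adora2a had 24 to 65 counts in cortex and 37 to 130 in hippocampus. The summed level of the 12 ran from 248 to 336 CPM in cortex and from 212 to 268 in hippocampus. With the mean log2 level of the tested striatal markers, 11 in cortex and 10 in hippocampus, the relations of Drd1 and Drd2 across libraries did not pass (Pearson's r between -0.07 and 0.17 in the 4 relations, Spearman's rho between -0.17 and 0.18; permutation test, adjusted p of 0.854 or more). The part of striatal tissue in the levels of Drd1 and Drd2 was not tested otherwise.

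Of 8 tested adrenergic receptors, 5 were lower and 1 was higher in hippocampus of labelled wild-type animals (30.1% and 30.4% of all genes). The counts were 4 lower and 0 higher with the Slc25a1 het label, 5 and 2 with the Mrpl40 het label, and 5 and 1 with the double het label. Adrb1 ran from 30.8 to 59.2 CPM (median 46.7) in cortex and from 12.9 to 16.5 (median 13.8) in hippocampus. The lowest cortex library lay well above the highest hippocampus library, and the labelled wild-type difference was 3.21-fold (log2 -1.68 ± 0.08; adjusted p = 4.44e-17). Adra1b, a Gq-coupled alpha-1 receptor, ran from 11.0 to 28.9 CPM in cortex and from 1.19 to 4.26 in hippocampus, 6.26-fold lower (log2 -2.65 ± 0.17; adjusted p = 3.91e-14). Adrb3, the beta receptor of brown fat, ran from 1.47 to 5.53 CPM in cortex and from 0.11 to 0.718 in hippocampus, 10.0-fold lower (log2 -3.32 ± 0.21; adjusted p = 1.36e-15). These 3 genes thus marked cortex in every library.

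Of the other alpha-1 receptors, Adra1a went the same way as Adra1b and Adra1d the opposite way. Adra1d was higher in hippocampus in 25 of 29 animals (medians 27.4 and 38.3 CPM; log2 0.53 ± 0.10; adjusted p = 5.34e-05), and Adra1a was lower in 28 of 29 (medians 4.23 and 2.48 CPM; log2 -0.67 ± 0.12; adjusted p = 9.15e-06). Of the alpha-2 receptors, which restrain noradrenaline release, Adra2a fell by 0.31 on the log2 scale (adjusted p = 0.00984), a difference that did not pass a test against a minimum fold of 1.2. Adra2c had medians of 13.7 and 14.0 CPM and a log2 difference of -0.01 ± 0.08 in labelled wild-type animals (adjusted p = 0.897). In labelled Mrpl40 het animals Adra2c was higher in hippocampus (0.24 ± 0.09, adjusted p = 0.0233). A direct test between these labels did not pass (log2 0.25, edgeR adjusted p = 0.846).

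**Figure D2:**
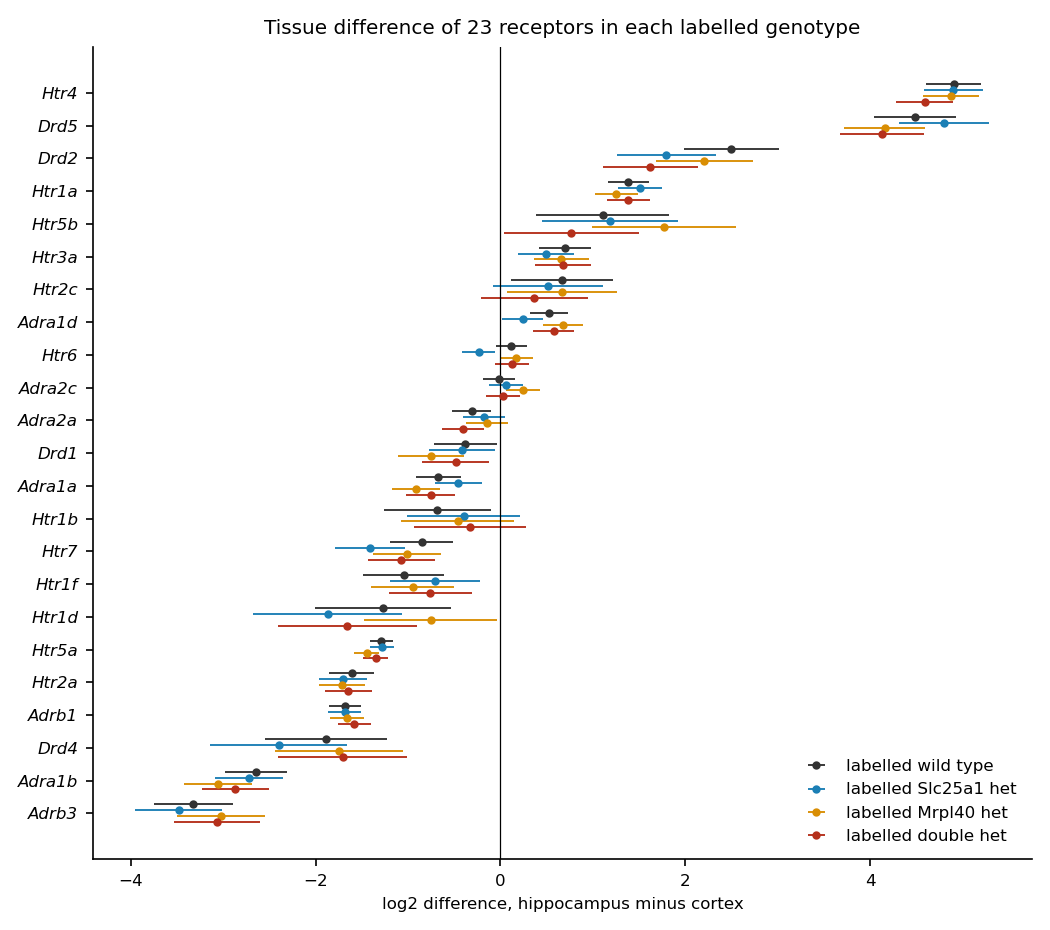
log2 difference, hippocampus minus cortex, of 23 of the 24 tested receptors, with 1 marker per labelled genotype and bars for the 95% confidence interval. Htr4 and Drd5 lie above 4 and Adrb3 near -3 in all 4 labelled genotypes.

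The pattern repeated across the labelled genotypes, which used different animals. In labelled Slc25a1 het animals 18 receptors differed, as did 60.4% of all genes: 6 were higher (30.5% of all genes) and 12 lower (29.9%). In animals labelled Mrpl40 het it was 19 receptors and 60.3% of all genes, 8 higher (30.8%) and 11 lower (29.4%). In animals labelled double het it was 18 receptors and 57.5%, 6 higher (28.9%) and 12 lower (28.6%). Without Drd4 and Htr1d these counts were 16, 18 and 16 of 22. In all 4 labelled genotypes 15 receptors differed (45% of all genes did): Htr4, Drd5, Drd2, Htr1a and Htr3a were higher in hippocampus (22.2% of all genes), and 10 were lower (22.8% of all genes), among them Adrb3, Adra1b, Adrb1, Htr2a, Htr5a and Htr7, and also Drd4, which passed the filter only through cortex. The sign was the same in all 4 for 22 of 24 receptors, and the exceptions, named after their values were seen, were Adra2c and Htr6. With receptors summed by signalling class per kilobase, the Gs-coupled class was lower in hippocampus in all 29 animals (medians 23.6 and 17.1). The channel subunits were higher in 26 of 29 (2.91 and 4.25). The Gi-coupled class was higher in 23 of 29 (16.6 and 18.5) and the Gq-coupled class in 13 of 29 (25.0 and 23.7). Single genes weighed heavily in these sums. Among Gs-coupled receptors Adrb1 fell from a median of 13.8 to 4.07, while Htr4 (0.100 and 3.27) and Drd5 (0.157 and 3.23) rose. In the Gi-coupled class Htr1a had 3.18 and 8.39, and the channel medians were those of Htr3a.

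Several receptor genes share exonic bases with a gene on the opposite strand, and the sources used here do not state the strand setting of the counting. Gm26560 covers 48.6% of the exonic length of Drd5, at medians of 0.037 CPM in cortex and 0.533 in hippocampus; Drd5's own hippocampal median was 10.2 CPM. Gm45470 covers 24.9% of Adrb3 and was itself higher in cortex (5.83 CPM) than in hippocampus (0.611), the direction of Adrb3, whose own median was 3.19 CPM in cortex. Reads of Adrb3 and Gm45470 may therefore not be fully separated, and the Adrb3 level is uncertain to that extent. D430036J16Rik covers 18.0% of Htr1b, at 1.87 and 0.949 CPM. The library kit keeps strand, per the labels' protocols.

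The second comparison asked whether the labelled alleles changed any receptor. None of the receptors passed the threshold (adjusted p under 0.05) in any of the 12 comparisons within a tissue by edgeR's quasi-likelihood test. Few genes of any kind did. Against labelled wild type in cortex, the share of all 20394 genes called was 0% for the Slc25a1 het label, 0.0294% for the Mrpl40 label and 0.0686% for the double label. Between the labelled hets in cortex it was 0.0588% (double het against Slc25a1 het), 0.0049% (double het against Mrpl40 het) and 0% (the interaction of the 2 alleles). In hippocampus the matching shares of 20162 genes were 0%, 0.00496% and 0.00992% against labelled wild type, and 0%, 0% and 0% for the other 3. The count of 0 receptors is thus no more than the background would give.

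Of 276 receptor tests, 13 (4.71%) had an unadjusted p under 0.05, against 6.8% of all gene tests, and DESeq2's Wald test called 0 receptors and had 13 at an unadjusted p under 0.05. The smallest adjusted p was 0.282, for Drd2 in cortex of labelled double het animals. Drd2 ran from 0.167 to 0.812 CPM (median 0.503) in the 9 labelled wild-type cortex libraries and from 0.423 to 1.55 (median 0.737) in the 7 labelled double het ones. The groups overlapped, and the log2 difference was 0.82 ± 0.29. Htr5b gave the largest log2 difference, 0.86 ± 0.27, for labelled double het against Mrpl40 het cortex (adjusted p = 0.444), at medians of 1.41 and 0.621 CPM. Both genes were low, with at most 42 counts of Drd2 and 57 of Htr5b in any cortex library.

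Adra2c and Htr6 are better measured and had the smallest unadjusted p of their comparisons, 0.00538 and 0.00694. Adra2c, an alpha-2 receptor, ran from 11.0 to 14.0 CPM in labelled Mrpl40 het cortex and from 12.9 to 16.9 in labelled wild-type cortex, with a log2 difference of -0.24 ± 0.08 (adjusted p = 0.546). Htr6 ran from 2.82 to 4.97 CPM in labelled Slc25a1 het hippocampus and from 4.58 to 6.37 in labelled wild-type hippocampus (log2 -0.35 ± 0.12; adjusted p = 0.525). In both cases the ranges overlapped and the difference did not survive adjustment over all genes.

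The 95% confidence intervals show what size of difference between the labelled groups could have been missed. The Slc25a1 level went against the label in 6 animals, and Mrpl40 did not separate the groups. The intervals therefore do not bound the effect of an allele. In cortex the interval lay inside a 1.5-fold change for 17 of 24 receptors with the Slc25a1 het label, for 15 with the Mrpl40 het label and for 16 with the double het label, and inside a 2-fold change for 23, 23 and 19. In hippocampus the counts inside 1.5-fold were 13, 15 and 17 of 22, and inside 2-fold 19, 19 and 20. The intervals that reached beyond 2-fold belonged to Drd2, Drd5, Htr1d, Htr2c and Htr5b in cortex and to Htr1b, Htr2c and Htr5b in hippocampus, genes that are low or vary widely between animals. A test of whether the labelled genotype difference varied between tissues called 0 of 24 receptors for labelled Slc25a1 het, Mrpl40 het and double het, where it called 0%, 0% and 0.0234% of all genes. Unadjusted p was under 0.05 for Htr6, Htr7, Drd2 and Adra2c in 1 of these tests each, 4 in all by edgeR (5.62% of all gene tests had such a p) and 4 by DESeq2.

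**Figure D3:**
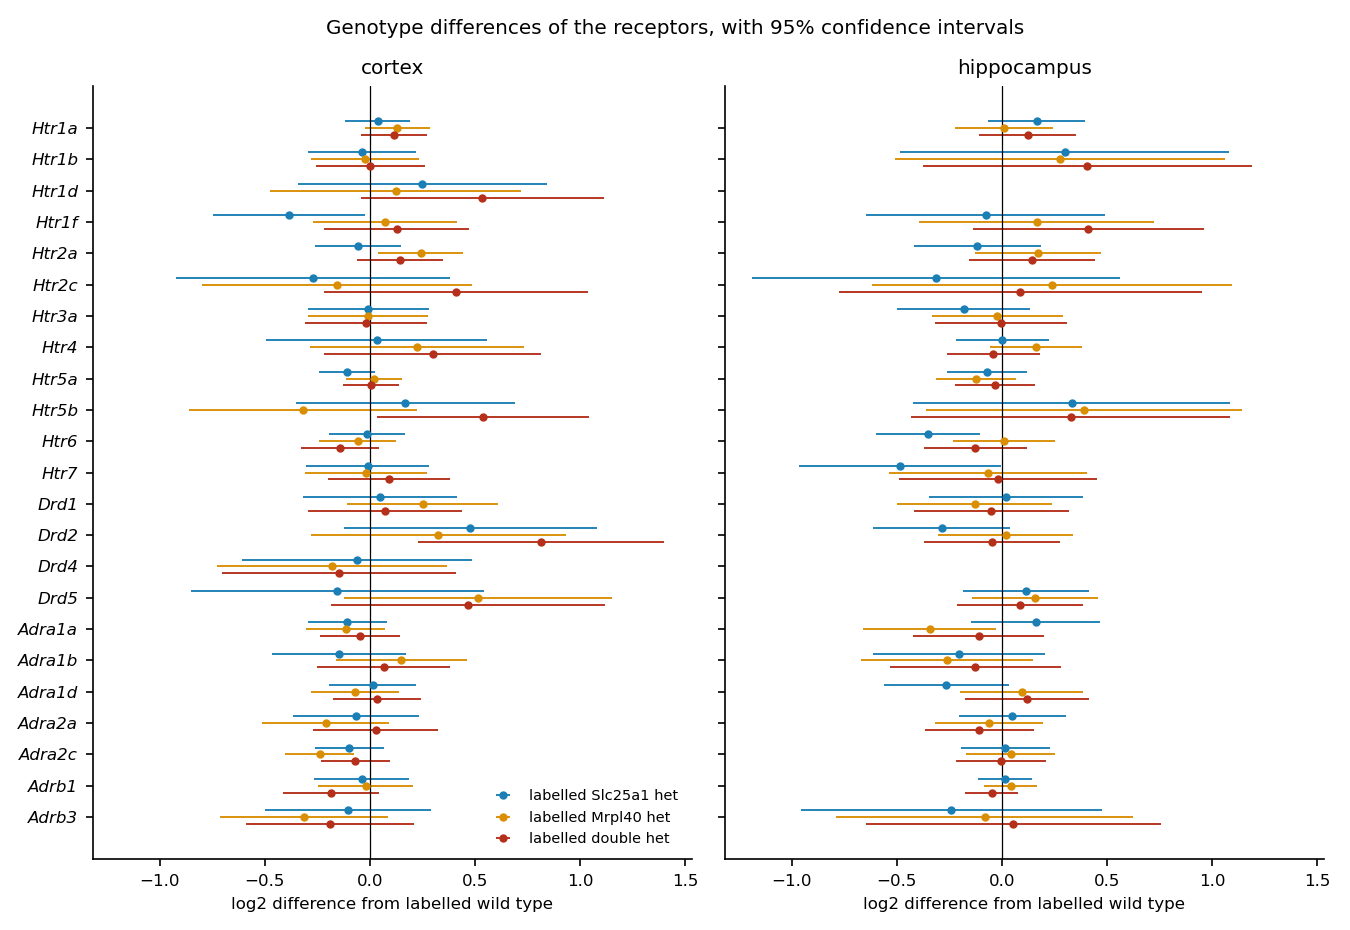
log2 difference from labelled wild type for 23 receptors in cortex and 21 in hippocampus, with bars for the 95% confidence interval and colours for the 3 labelled het genotypes. Most points sit near 0, none passed the adjusted threshold, and the widest bars belong to Drd5, Htr2c and Drd2 in cortex and to Htr2c, Htr1b and Htr5b in hippocampus.

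The level of some receptors varied widely between animals of the same labelled genotype. Beyond counting noise, the coefficient of variation within groups was highest for Htr2c, a Gq-coupled receptor of choroid plexus and of some neurons, at 54.7% in cortex and 74.6% in hippocampus, against medians of 7.70% and 9.22% over all tested genes. The hippocampal value rested on 1 library, labelled Mrpl40 het replicate 5, and was 42.0% without it; in cortex it was 41.0% without labelled wild-type replicate 2. Htr2c ran from 4.71 to 24.2 CPM in cortex and from 5.77 to 54.2 in hippocampus. In hippocampus Htr1b had 54.3% and Htr5b 51.8%, and leaving out any 1 library moved these to no less than 50.1% and 43.7%. The steadiest was Adrb1 in hippocampus (6.40%), and Htr6 (8.03%) and Adra1a (8.21%) were steady in cortex. The relation of Htr2c to the mean log2 level of the tested choroid plexus markers, 7 in cortex and 9 in hippocampus, did not pass (r = 0.11 and 0.03, rho = 0.07 and -0.10; permutation test, adjusted p = 0.862 and 0.871).

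Receptor levels were then compared with markers of cortical layers, hippocampal subfields and interneurons across libraries, with the labelled genotype mean removed from each gene. The markers are textbook genes of these cells, and all p-values are from permutation tests, adjusted over the 720 relations in cortex or the 704 in hippocampus. In cortex 94 of 360 receptor and layer marker relations passed the threshold (26.1%), the weakest at an r of 0.46 in size, and 8.79% of the relations of all tested genes to these markers were as strong. With interneuron markers 48 of 360 passed (13.3%), against 6.06% of all genes' relations as strong as the weakest of them (0.47). In hippocampus 84 of 374 with subfield markers passed (22.5%), against 13.1%, and 46 of 330 with interneuron markers (13.9%), against 9.02% (weakest r of 0.47 in both). These shares are a description: the receptors share libraries and the markers rise and fall together. Libraries of a tissue share their dissection, and the part of dissection in these relations was not tested.

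Drd1 in cortex followed the deep layers. It rose with the layer 6 genes Tle4 (r = 0.84, rho = 0.87, adjusted p = 0.00045), Syt6 (r = 0.84, rho = 0.87) and Foxp2 (r = 0.82, rho = 0.87), and it fell with the upper layer genes Lamp5 (r = -0.78, rho = -0.79) and Cux2 (r = -0.75, rho = -0.76). Without the 2 farthest libraries, r was 0.84 for Tle4 and -0.80 for Lamp5. In all, 9 of 15 layer markers passed for Drd1, 7 positive and 2 negative. Lamp5 also stood on the list of interneuron markers and was counted here as a layer gene only. Htr7 had the reverse pattern, positive with Lamp5 (r = 0.69, rho = 0.64, adjusted p = 0.000939; 0.64 without the 2 farthest) and negative with Cplx3, a gene of the deepest layer (r = -0.66, rho = -0.67), and Foxp2 (r = -0.65, rho = -0.62). Adrb3 was also opposite to Drd1, at r = -0.77 (rho = -0.75) with Syt6 and r = -0.73 (rho = -0.71) with Tle4. Adra2a sided with Drd1, at r = 0.74 (rho = 0.76) with Cplx3. For Htr7 and for Adrb3 10 of 15 layer markers passed, 3 positive and 7 negative, and for Adra2a 8, 5 positive and 3 negative.

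Htr3a in cortex rose with part of the interneuron markers: 8 of 15 passed, 6 positive and 2 negative. Its relation to the mean log2 level of 16 interneuron markers, Htr3a itself left out, was r = 0.65 (rho = 0.65; adjusted p = 0.00064 over 8 relations; r = 0.58 without the 2 farthest libraries). The positive ones were led by Vip (r = 0.75, rho = 0.69), Ndnf (r = 0.71, rho = 0.65) and Adarb2 (r = 0.68, rho = 0.53), genes of the interneurons that arise in the caudal ganglionic eminence. Without the 2 farthest libraries these fell to 0.64, 0.68 and 0.54. The negative ones were Sst (r = -0.56, rho = -0.46; adjusted p = 0.0118) and Pvalb (r = -0.54, rho = -0.43; adjusted p = 0.0185), genes of the interneurons of the medial ganglionic eminence, at -0.39 and -0.37 without the 2 farthest. In hippocampus the relation of Htr3a to the mean of these markers did not pass (r = 0.31, rho = 0.17, permutation test, adjusted p = 0.408). Of the single interneuron markers 4 of 15 passed there, all positive.

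In hippocampus the subfields separated the receptors. Htr1b and Htr5b, both low and variable, followed markers of the CA1 field: Htr1b had r = 0.89 (rho = 0.90) with Mpped1 and r = 0.86 (rho = 0.77) with Wfs1, and Htr5b had r = 0.81 (rho = 0.77) with Mpped1 and r = 0.78 (rho = 0.70) with Spink8 (adjusted p = 0.000391 for each). For Htr1b the CA3 gene Grik4 was negative (r = -0.61, rho = -0.65; adjusted p = 0.00654). Adra1d rose with the CA3 genes Bok (r = 0.83, rho = 0.76) and Grik4 (r = 0.75, rho = 0.83), and fell with Vip (r = -0.78, rho = -0.81). Htr4 went with the dentate granule cell genes C1ql2 (r = 0.64, rho = 0.60; adjusted p = 0.00368), Dock10 (r = 0.64, rho = 0.61) and Prox1 (r = 0.60, rho = 0.58). These relations held, at r of 0.60 or more in size, without the 2 farthest libraries. Of 17 subfield markers, 7 passed for Htr1b and 7 for Htr5b, 5 positive and 2 negative for each. For Adra1d 7 passed, 6 positive and 1 negative, and for Htr4 5, all positive. The markers named are only a part of these.

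Htr2c in hippocampus rose with the inhibitory neuron genes Slc32a1 (r = 0.85, rho = 0.85; adjusted p = 0.000391) and Gad2 (r = 0.77, rho = 0.67), and fell with the dentate genes Dsp (r = -0.81, rho = -0.83) and Prox1 (r = -0.78, rho = -0.74). Its direct relation to Htr4 did not pass (r = -0.29, rho = -0.37; adjusted p = 0.343). Without the 3 hippocampus libraries that stood apart, r was 0.82 for Slc32a1 and -0.84 for Dsp. The library with the highest Htr2c, labelled Mrpl40 het replicate 5 at 54.2 CPM, is 1 of those 3. Drd5 rose with Zbtb20 (r = 0.71, rho = 0.71) and Rgs14 (r = 0.69, rho = 0.63), genes of hippocampal principal cells. Without the 2 farthest libraries r was 0.60 and 0.65. For Htr2c, 7 of 15 interneuron markers passed (6 positive and 1 negative) and 6 of 17 subfield markers (1 positive and 5 negative). For Drd5, 5 of 17 subfield markers passed (4 positive and 1 negative).

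Pairs of receptors were compared in the same way. Among 276 pairs in cortex 29 passed the threshold (10.5%), 16 positive and 13 negative, and 2.76% of all pairs of tested genes were as strong as the weakest of them (r of 0.50 in size). Among 231 pairs in hippocampus 22 passed (9.52%), 18 positive and 4 negative, against 3.76% of all gene pairs (0.52). In cortex Adra2a was positive with Drd1 (r = 0.75, rho = 0.70; adjusted p = 0.00138; 0.63 without the 2 farthest libraries) and negative with Htr7 (r = -0.74, rho = -0.81; -0.81 and -0.73 without the 2 farthest by either gene). Htr7 was positive with Adra1d (r = 0.69, rho = 0.70) and negative with Drd1 (r = -0.66, rho = -0.69). Htr5a was negative with Drd1 (r = -0.58, rho = -0.60) and Adra2a (r = -0.62, rho = -0.61), and positive with Htr7 (r = 0.66, rho = 0.60). The relation of Adra1d to Drd1 did not pass (r = -0.39; adjusted p = 0.149).

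In hippocampus Htr2c paired with Htr3a (r = 0.76, rho = 0.59; adjusted p = 0.00139), which dropped to 0.54 without the 2 farthest libraries and to 0.57 without the 3 that stood apart. Adra2c paired with Htr1a (r = 0.73, rho = 0.64) and Htr1b with Htr5b (r = 0.69, rho = 0.65), and without those 3 libraries both were as strong (0.76 and 0.72). With the 2 farthest libraries by either gene left out as well, the pair of Adra2c and Htr1a had r = 0.65 and 0.63. The pair of Htr2c and Htr7 (r = 0.69, rho = 0.61) was no longer among the 16 that passed without the 3 libraries. For single pairs the background varied: 1.60% of tested genes were correlated with Htr1b at least as strongly as Htr5b was. The share was 0.0198% for Htr1a as strongly as with Adra2c, and 9.59% for Htr7 as strongly as with Drd1 in hippocampus (r = -0.52).

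**Figure D4:**
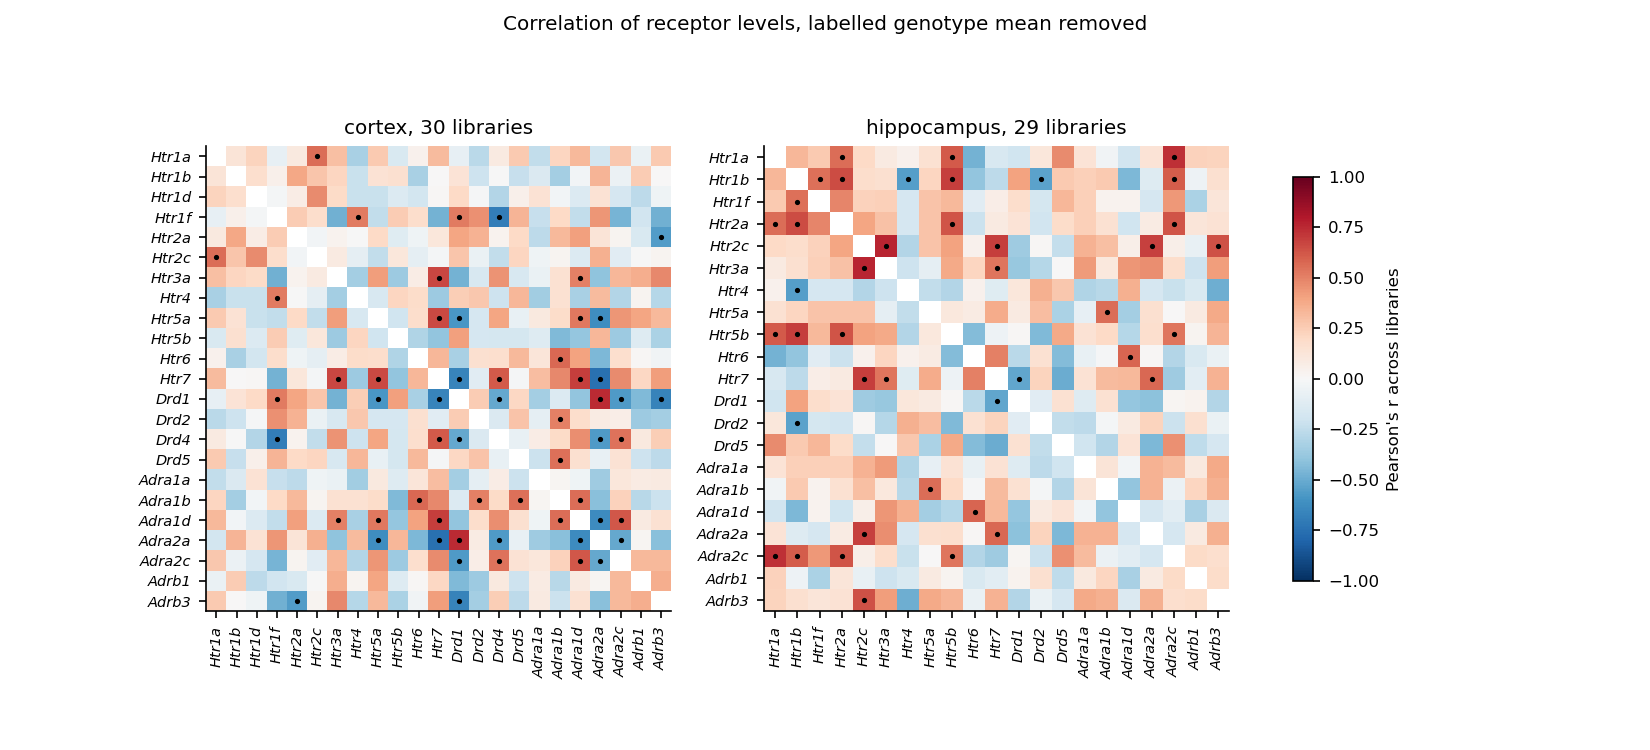
Pearson's r between receptor levels across the 30 cortex and 29 hippocampus libraries, with the labelled genotype mean removed; colour runs from -1 to 1 and dots mark pairs that passed the adjusted threshold. Of the pairs among the 23 receptors drawn for cortex 28 carry a dot, and among the 21 drawn for hippocampus 21 do.

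**Figure D5:**
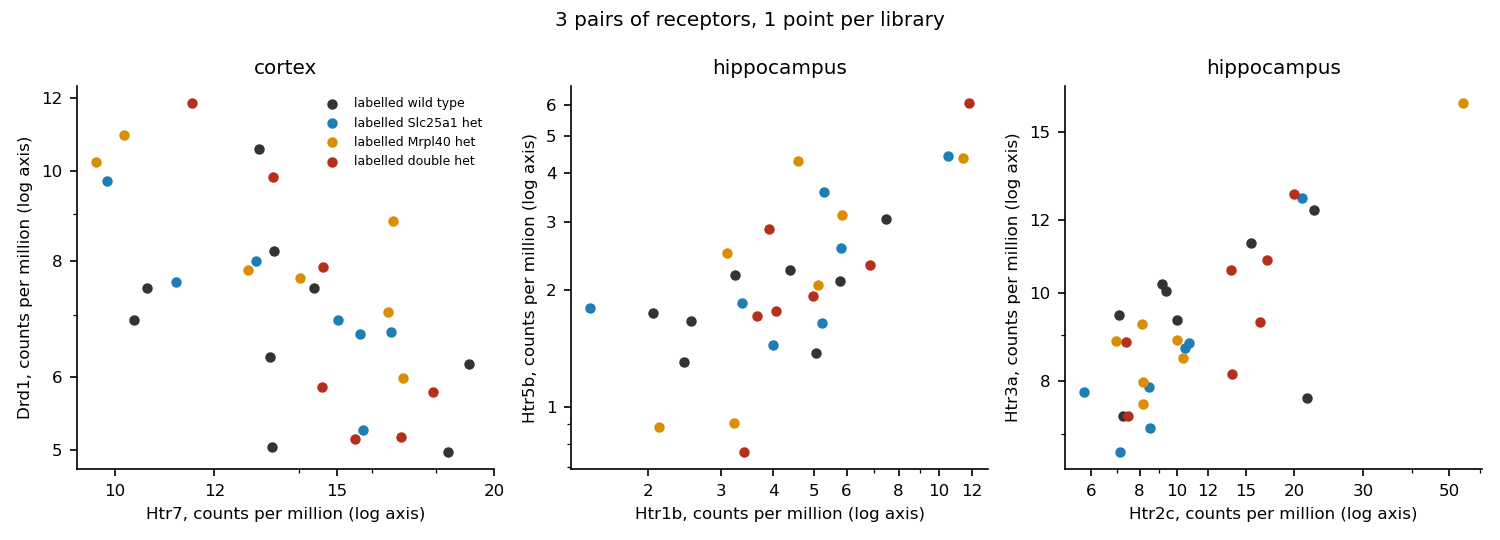
Levels of 3 receptor pairs plotted against each other in CPM (log axes), 1 point per library, coloured by labelled genotype: Htr7 and Drd1 in cortex, Htr1b and Htr5b in hippocampus, and Htr2c and Htr3a in hippocampus. Drd1 falls as Htr7 rises (r = -0.66), the other pairs rise together, and 1 library at 54.2 CPM stands to the right in the last panel.

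As a description, with no test and chosen after the values were seen, the genes whose pattern was most like a receptor's were as follows. Drd1 in the 30 cortex libraries was most like Map1b, Hs3st4 and Pcp4 (r = 0.89 each). In the 29 hippocampus libraries Htr1b was most like Hunk (r = 0.93) and Homer2 (r = 0.91), Htr5b like Cpne8 (r = 0.90), and Htr2c like Sox5 (r = 0.89). Htr3a in hippocampus was most like Cnr1, the cannabinoid receptor gene (r = 0.92), and Htr7 like Efr3b and Kit (r = 0.89 each). The 29 libraries include labelled Mrpl40 het replicate 5, where Htr3a reached 16.1 CPM, with the next of its group at 9.24. No value without that library is given. The search covered 14902 genes in cortex and 14913 in hippocampus, fewer than were tested.

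Across the 29 animals with both tissues, a receptor's level in hippocampus was compared with its level in cortex, labelled genotype means removed. None of 22 receptors passed the adjusted threshold (permutation tests), and 3 had an unadjusted p under 0.05. The closest were Htr6 (r = 0.50, rho = 0.45; p = 0.00601, adjusted p = 0.132; r = 0.53 without the 2 farthest animals) and Htr5a (r = 0.43, rho = 0.43; p = 0.0202, adjusted p = 0.222). Without the 6 animals whose Slc25a1 level went against the label, Htr6 passed (r = 0.60, rho = 0.59; adjusted p = 0.0480). For the large majority of receptors an animal's level in one tissue thus did not pass as related to its level in the other.

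Genes on either side of the receptors also differed between the tissues. Of 17 listed genes of monoamine synthesis, transport and breakdown, 13 were tested and 9 passed the filter in both tissues. Of these 9, 5 were higher and 3 lower in hippocampus of labelled wild-type animals (60.7% of all such genes differed), with a median log2 difference of 0.21 (0.0066 over all genes tested). Slc29a4, the plasma membrane monoamine transporter, was higher by 3.81 ± 0.14 on the log2 scale, and Gch1, which makes the cofactor of monoamine synthesis, by 1.47 ± 0.15. Dbh, which makes noradrenaline, and Slc6a3, the dopamine transporter, passed only through hippocampus, with median counts of 31 and 10 there and 4.5 and 2 in cortex. Slc22a3, a low-affinity transporter, fell by 1.74, and Tph2, the neuronal enzyme of serotonin synthesis, by 0.80. The genes that define monoamine neurons ranged widely. Slc6a4, the serotonin transporter, had a median of 0.5 counts in cortex and 1 in hippocampus, and Slc6a2, the noradrenaline transporter, 0 and 1. Th, which makes the dopamine precursor, had 14.5 and 6, Tph2 70 and 40, and Slc18a2, the vesicular monoamine transporter, 232 and 264.

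Of 41 G protein, cyclase and regulator genes downstream of the receptors, 40 passed the filter in both tissues, of which 12 were higher and 23 lower in hippocampus in labelled wild-type animals (30.4% and 30.1% of all genes), with a median log2 difference of -0.22 (0.0066 over all genes). The 4 lower genes with the smallest p were Rgs4, which shortens Gi and Gq signals (log2 -2.28 ± 0.08), Grk2, which switches off active receptors (-0.45 ± 0.03), Pde4b, which degrades cyclic AMP (-0.95 ± 0.06), and S100a10, a partner protein of Htr1b (-1.07 ± 0.07). The 4 higher ones were Arrb2, a beta-arrestin (0.44 ± 0.04), Rgs9 (0.80 ± 0.07), Pde1b (0.57 ± 0.08) and Adcy1, a calcium-stimulated cyclase (0.49 ± 0.07). Neither list had a gene that passed in any of the 12 genotype comparisons or the 3 tests of a difference between tissues by edgeR's quasi-likelihood test or by DESeq2. Unadjusted p was under 0.05 in 1 of 165 tests of the synthesis and transport genes (0 by DESeq2) and in 26 of 609 of the downstream genes (36 by DESeq2).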

How the data were processed

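Poly(A) RNA of cortex and hippocampus was sequenced as paired reads. The submitters' processing notes name FastQC, HISAT2, featureCounts, DESeq2 and GRCm39 (mm39) with no versions. The authors deposited raw counts per gene, used for every test here, and DESeq2-normalized counts (signal), scaled within each tissue and used only in an alternative. Rows without a symbol (7074 of 57180) were kept as genes.

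The receptors, marker lists and tests were chosen with earlier results of these data known. Counts were filtered with edgeR 4.0.16 (filterByExpr, minimum count 10), TMM-scaled and tested with its robust quasi-likelihood test. Genotype was tested within each tissue, and tissue over both tissues of the 29 animals with animal as a block. Deviations of an animal's 2 libraries were weakly related over genes (median r 0.054, from 0.019 to 0.139). Between tissues of different animals the median was -0.003 (from -0.116 to 0.111), so the ranges overlapped. Benjamini-Hochberg adjustment ran over all genes, threshold 0.05. Each library is 1 animal and tissue. Correlations used log2 CPM (prior count 2), 100000 permutations and both coefficients; the smallest p these can give is 1e-05. Every receptor tested in either tissue was named except 1, and of each pathway list at most 4 genes a direction, by smallest p; markers and look-alikes were named by strength of correlation, after their values were seen. DESeq2 1.42.0 and limma 3.58.1 (log2, pseudocount 1) gave alternatives. Scripts were tested on simulated data. That receptor and 1 gene of the synthesis and transport list are not reported here by name and not drawn, but stand in the counts.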

Additional observations from a re-analysis of the deposited data

Results flagged for a closer look

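A library far from the others of its group was found in 13 of the 184 receptor and group combinations tested by Dixon's criterion, where chance flags about 1 in 20. All values are CPM.

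Of these, 3 concerned Htr2c and Htr3a in hippocampus. Htr2c reached 54.2 in labelled Mrpl40 het replicate 5, with the next library at 10.3, and Htr3a reached 16.1 in the same library, with the next at 9.24. This library also had a high sum of choroid plexus markers, and the part of that in the result was not tested. Htr3a was 12.7 in labelled Slc25a1 het replicate 1, with the next at 8.80. In cortex Htr2c was 24.2 in labelled wild-type replicate 2, with the next at 7.21.

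Among adrenergic receptors, Adra1d was low at 21.8 in labelled double het cortex replicate 6 (next 27.1) and at 21.2 in labelled wild-type hippocampus replicate 8 (next 35.0). Adra2c was low at 10.3 in labelled Slc25a1 het cortex replicate 4 (next 13.3) and high at 21.4 in labelled Mrpl40 het hippocampus replicate 4 (next 14.5). Adrb1 was low at 30.8 in labelled wild-type cortex replicate 3 (next 42.8) and high at 15.2 in labelled double het hippocampus replicate 7 (next 14.0).

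Drd4 was 0.135 in labelled Slc25a1 het cortex replicate 4, which is 4 counts, and 1.06 in labelled double het cortex replicate 4, which is 26 counts. Htr7 was low at 3.16 in labelled double het hippocampus replicate 6 (next 6.18), 1 of the 3 libraries that stood apart in markers.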

How the results depend on the processing

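Of 154 recomputed counts and comparisons, 153 equalled the value reported or stayed within 1.5 times of it. Most of these were genotype comparisons, or their differences between tissues, that called 0 receptors and few genes of any kind. In those, little could move. The count of receptors whose levels were related between tissues went from 0 to 1 without the 6 animals whose Slc25a1 level went against the label; the cause was not tested. Of 316 recomputed single-receptor results, 300 were the same, 14 lost the call (all of Adra2a, Drd1, Htr1b or Htr2c in labelled wild-type animals), 1 changed sign (Adra2c between tissues, a log2 difference of 0.0636 without those 6 animals and -0.01 with them) and 1 moved by over 1.5 times (the spread of Htr2c in hippocampus, 42.0% without 1 library). Receptors that differed between tissues numbered 17 to 21 in animals labelled wild type, and 14 to 19, 17 to 21 and 16 to 19 in those with the Slc25a1, Mrpl40 and double labels, over 8 settings each. Genotype comparisons called 0 receptors under every setting run: DESeq2's Wald test and size factors, no filter, a fold of at least 1.2, only the genotypes compared, limma on the deposited normalized counts, leaving out the 6 animals or the 3 libraries, and the replicate block. Replicate numbers are shared across genotypes only as numbers (same-numbered libraries of different genotypes had a median r of 0.015, from -0.118 to 0.163), and with the replicate number as a block 0 receptors were called. Limma was not run between tissues, because the deposited normalized counts were scaled separately in each. For receptors with few counts, such as Drd2, Htr4 and Drd5 in cortex, depth limits what can be seen. P-values measure the spread between these animals.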
